A study of Zea mays with 448 samples.

Results

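The genes described here are 8 maize gene models of lignin synthesis, chosen by name from the 53921 gene models that carried at least 1 segregating site, a position at which a maize and a teosinte parent differ. They are 2 genes for phenylalanine ammonia-lyase (PAL-a, GRMZM2G074604, and PAL-b, GRMZM2G029048), a cinnamate hydroxylase (C4H, GRMZM2G139874), a coumarate CoA ligase (4CL, GRMZM2G075333), 2 caffeoyl-CoA methyltransferases (CCoAOMT-a, GRMZM2G127948, and CCoAOMT-b, GRMZM2G099363), a cinnamoyl-CoA reductase (CCR, GRMZM2G131205) and the cinnamyl alcohol dehydrogenase gene brown midrib1 (bm1, GRMZM5G844562). The letters a and b only tell the copies of a family apart. No measured value entered the rule that chose them, but earlier results of these data were known when it was set.

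RNA was sequenced from seedling stem, which includes the shoot apical meristem, from seedling leaf and from immature ear of F1 hybrids between maize and teosinte, of the maize parents B73, CML103, Ki3, Mo17, Oh43 and W22, and of the teosinte parents TIL01, TIL03, TIL05, TIL09, TIL10, TIL11, TIL14, TIL15 and TIL25. Plants were grown in a chamber and then a greenhouse, with no treatment, and small teosinte ears were pooled within a plant. In an F1 the maize and the teosinte allele of a gene share the same cells, and the reads of each allele were counted at the segregating sites. In the 15 inbred parents the reads of that inbred were counted at the sites of its crosses. The values rest on 56 stem, 57 leaf and 59 ear libraries of 29, 29 and 28 F1 crosses, and on 29 stem, 29 leaf and 30 ear libraries of 6 maize and 9 teosinte inbreds.

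Lignin is the phenolic polymer that stiffens the walls of xylem vessels and fibers. PAL removes ammonia from phenylalanine, C4H and 4CL turn the product into a CoA thioester, CCoAOMT methylates the ring while it is held on CoA, CCR reduces the thioester to an aldehyde, and CAD (bm1) reduces the aldehydes to the monolignols that are polymerized in the wall. Maize plants that lack bm1 function have brown leaf midribs and an altered lignin, for which the gene is well known in forage maize.

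The F1 libraries held 813211 to 3175800 reads at segregating sites, and the inbred libraries held 602686 to 4277708. Of the 172 F1 libraries, 169 had 47.9% to 53.6% maize reads over all sites. The other 3, all of the cross B73xTIL01, had 80.1% in stem, 80.7% in leaf and 56.9% in ear, and results were also computed without them and without 2 libraries of sequencing pool 6 whose tissue is not the same in all sources (Oh43xTIL01 labelled ear and Oh43xTIL11 labelled stem). In these 2 the floral markers zag1 and zag2 summed to 37.5 RPM in the library labelled ear and 0.727 in the one labelled stem, beside medians of 29.6 in F1 ear and 0 in F1 stem. Each tissue was sequenced in pools of its own apart from pool 6, so tissue and pool cannot be told apart in most libraries. The 4 marker genes of leaf photosynthesis (PEPC, PPDK, NADP-ME and RbcS) summed to a median of 30.8 RPM (reads for every 1000000 reads of the library at segregating sites) in F1 stem (range 0 to 163), 6254 in F1 leaf (207 to 41539) and 23.99 in F1 ear (1.35 to 293). In inbreds the same sums had a median of 188 in stem (12.1 to 452), 896 in leaf (138 to 10641) and 31.3 in ear (7.12 to 77.9). RbcS was at 0 in 55 of the 57 F1 leaf libraries and in 25 of the 29 inbred leaf libraries. The meristem marker kn1 had a median of 61.3 RPM in F1 stem and 53.9 in inbred stem, and of 0 in the leaf of both.

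How much of each gene could be seen depended on where the parents differ. On the B73 genome AGPv2 the sites of PAL-a lie on chromosome 5 between positions 186677007 and 186679964 (14 sites in 16 crosses), and those of its neighbor PAL-b between 186726417 and 186730175 (11 sites in 13 crosses). How reads that match both of these neighboring PAL genes were treated is not given in the sources used here, so their separate values are uncertain to that extent. The C4H sites lie on chromosome 8 between 83793044 and 83796073 (4 sites in 3 crosses), and the 4CL sites on chromosome 5 between 89152319 and 89156837 (24 sites in 26 crosses). The CCoAOMT-a sites lie on chromosome 6 between 79194003 and 79195470 (9 sites in 9 crosses), and the CCoAOMT-b sites on chromosome 9 between 16318241 and 16319386 (4 sites in 10 crosses). For CCR the sites lie on chromosome 1 between 211520119 and 211526165 (22 sites in 23 crosses), and for bm1 on chromosome 5 between 98993022 and 98995630 (10 sites in 25 crosses). All sites lie in annotated transcripts and so in exons, and coding and untranslated parts were not told apart.

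The first comparison set the maize allele against the teosinte allele within the same F1 plants. A gene was tested in a tissue when it had at least 100 reads in F1s and 100 in parents, which 7 of the 8 genes had in stem, 7 in leaf and 5 in ear. CCoAOMT-b did not pass in any tissue, and bm1 and C4H did not pass in ear. The test was edgeR's quasi-likelihood test with the cross as a block, two-sided, and a gene was called at a Benjamini-Hochberg adjusted p below 0.005 over all genes tested. No lignin gene was called in stem, leaf or ear, where 4.11%, 4.13% and 4.98% of all tested genes were called, and DESeq2 called none of them either. With the alleles of each library paired (the library as block) 1 was called, bm1 in stem, where 1766 of all 16871 tested genes were called. That fit takes the libraries of a cross as independent. Crosses also share parents, which neither block takes into account. At an unadjusted p below 0.05 there were 2 of the lignin genes in stem (bm1 and PAL-a), 1 in leaf (CCR) and 1 in ear (PAL-b), where 27.2%, 26.1% and 28% of all tested genes lay below it. The median log2 ratio of maize over teosinte reads was 0.17 for the lignin genes tested in stem, 0.12 in leaf and 0.12 in ear, beside 0.06, 0.07 and 0.04 over all tested genes.

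**Figure D1:**
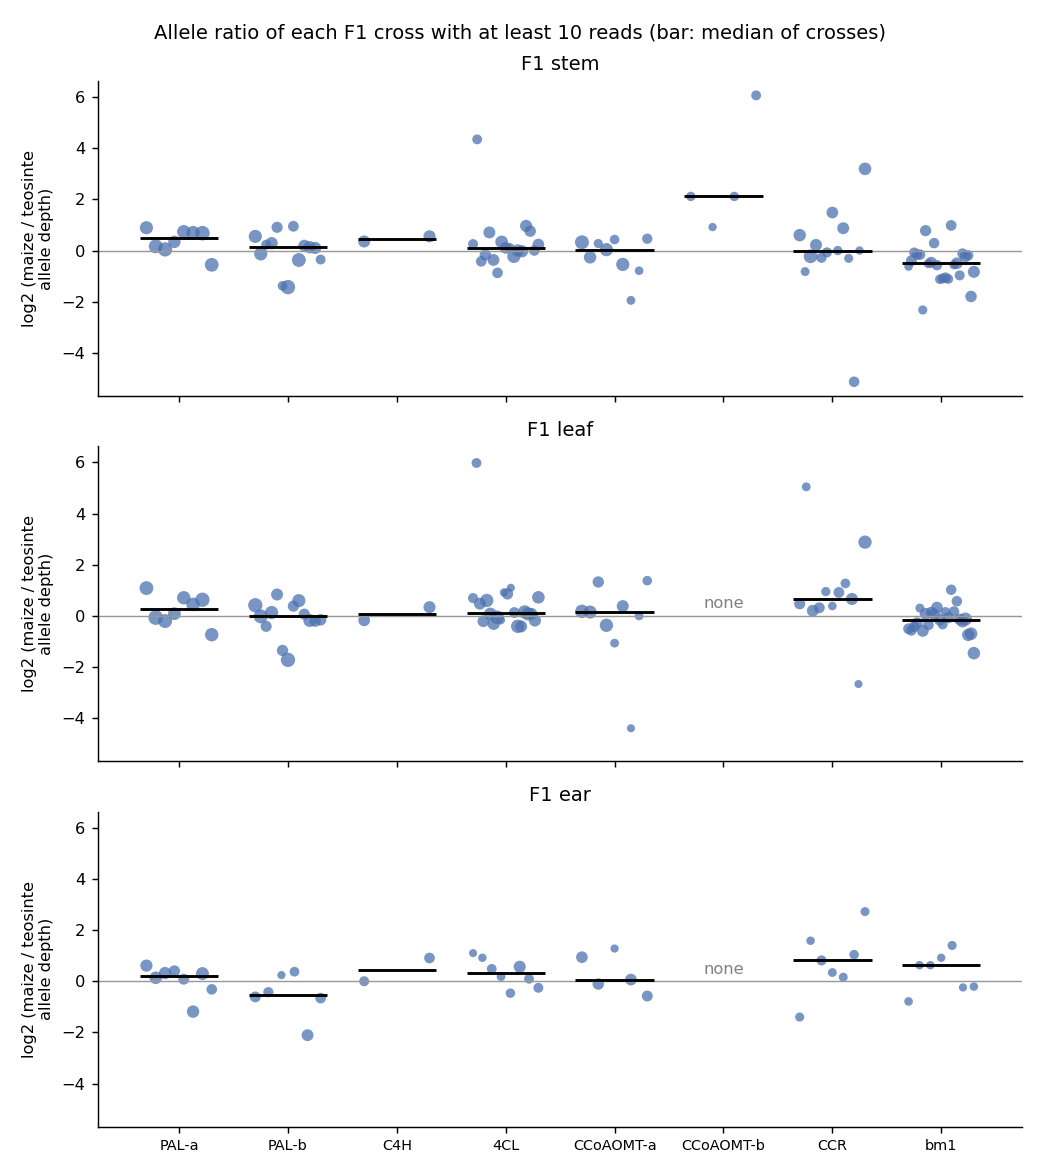
Log2 ratio of maize over teosinte allele reads (vertical axis) for the 8 lignin genes (horizontal axis) in F1 stem, leaf and ear. Each point is a cross with at least 10 reads, its size grows with the number of reads, and the bar is the median of the crosses; in stem 21 of the 24 bm1 points lie below 0, and 4CL and CCR have points far from the rest.

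For PAL-a, which makes cinnamic acid at the entry of the pathway, 3863 maize and 3058 teosinte reads were counted in F1 stem. Ratios of single crosses are given for those with at least 10 reads, with 0.5 added to each allele. The log2 ratio of PAL-a over 8 crosses was −0.56 at the lowest, 0.51 at the median and 0.89 at the highest, and 7 of the 8 crosses had more maize reads. The fitted log2 ratio was 0.40 ± 0.18 (SE), with an unadjusted p of 0.0416 and an adjusted p of 0.165 by edgeR. In leaf PAL-a had 4211 maize and 3580 teosinte reads and a fitted log2 ratio of 0.25 ± 0.19 (SE). In ear it had 785 maize and 751 teosinte reads, with 0.07 ± 0.21 (SE). W22xTIL03 was the cross with more teosinte reads in stem (339 maize, 499 teosinte), and it also had more teosinte reads in leaf (235 maize, 391 teosinte) and in ear (24 maize, 30 teosinte).

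For PAL-b the sum over crosses was set by a single cross, Mo17xTIL09. Summed reads in stem were 1878 maize and 2574 teosinte, a log2 ratio of −0.45, and 35.3% of those reads came from Mo17xTIL09. Without that cross the summed ratio was 0.03, and the fitted ratio over all 13 crosses was 0.00 ± 0.19 (SE). Mo17xTIL09 had 425 maize and 1146 teosinte reads in stem, 342 and 1126 in leaf, and 27 and 118 in ear, which is 27.1%, 23.3% and 18.6% maize. The exact (Clopper-Pearson) 95% intervals of these shares were 24.9% to 29.3%, 21.2% to 25.5% and 12.6% to 25.9%. Such intervals cover counting error only, since reads are not independent molecules and a read that spans several sites was counted at each. In ear PAL-b had 130 maize and 258 teosinte reads over all 13 crosses, with a fitted log2 ratio of −0.69 ± 0.29 (SE), an unadjusted p of 0.0263 and an edgeR adjusted p of 0.121. The summed log2 ratio in ear was −0.99, and −0.44 without Mo17xTIL09. Mo17xTIL09 was singled out after its values were seen, as were the other crosses named below.

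C4H, which hydroxylates cinnamic acid, had reads in 2 crosses only. They summed to 208 maize and 151 teosinte reads in stem and 161 and 148 in leaf, and neither ratio passed the test (fitted log2 0.40 ± 0.39 and 0.08 ± 0.41, SE). 4CL had 1336 maize and 1219 teosinte reads in stem, with a fitted log2 ratio of 0.17 ± 0.20 (SE), and 2457 maize and 2298 teosinte reads in leaf, with 0.23 ± 0.20 (SE). Over 17 crosses in stem its log2 ratio had a median of 0.10, a lowest value of −0.87 and a highest value of 4.35. The highest value belonged to B73xTIL05, with 30 maize reads and 1 teosinte read in stem (96.8% maize, exact 95% interval 83.3% to 99.9%). In leaf this cross had 31 maize reads and 0 teosinte reads (100% maize, exact 95% interval 88.8% to 100%). B73xTIL05 was also the highest of the 20 crosses in leaf, at 5.98 against a median of 0.11.

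CCoAOMT-a, which methylates caffeoyl-CoA, had 1160 maize and 1161 teosinte reads in stem, 1000 and 946 in leaf, and 245 and 217 in ear. The fitted log2 ratios were −0.12 ± 0.21 in stem, 0.12 ± 0.32 in leaf and 0.12 ± 0.31 in ear (SE). CCoAOMT-b had too few reads for the test: 88 maize and 26 teosinte in stem, 9 and 11 in leaf, and 10 and 4 in ear. In stem all 4 of its crosses with at least 10 reads had more maize reads, with a log2 ratio of 0.92 at the lowest, 2.12 at the median and 6.07 at the highest. The highest was Oh43xTIL15, with 33 maize and 0 teosinte reads (100% maize, exact 95% interval 89.4% to 100%). When the filter was lowered to 1 read, CCoAOMT-b had a fitted stem ratio of 1.398 ± 0.607 (SE) and an edgeR adjusted p of 0.175.

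CCR commits the CoA thioesters to the monolignol branch, and its crosses differed more than those of any other tested lignin gene in stem, with an SD over crosses of 1.84 on the log2 scale. It had 1149 maize and 874 teosinte reads in stem and a fitted log2 ratio of 0.27 ± 0.35 (SE). The summed stem ratio was 0.39, and it lay between 0.08 and 0.84 when a single cross was left out, the highest being without B73xTIL05, which gave 40.6% of the reads. In leaf it had 842 maize and 321 teosinte reads, and 10 of 11 crosses had more maize reads, with a log2 ratio of −2.66 at the lowest, 0.66 at the median and 5.04 at the highest. The fitted leaf ratio was 0.78 ± 0.37 (SE), with an unadjusted p of 0.0461 and an edgeR adjusted p of 0.182. Oh43xTIL15 gave 45.7% of the CCR reads in leaf, and the summed log2 ratio was 1.39 with it and 0.54 without it. This cross had 251 maize and 27 teosinte reads in stem (90.3% maize, interval 86.2% to 93.5%) and 468 and 63 in leaf (88.1%, 85.1% to 90.8%). Mo17xTIL09 went the other way, with 1 maize and 52 teosinte reads in stem (1.89% maize, 0.0478% to 10.1%) and 1 and 9 in leaf.

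For bm1, the CAD gene at the last step, the teosinte allele had more reads in most crosses of stem. Its reads summed to 569 maize and 791 teosinte in stem, and 21 of the 24 crosses with at least 10 reads had more teosinte reads. The log2 ratio was −2.32 at the lowest, −0.50 at the median and 0.98 at the highest. The fitted ratio was −0.48 ± 0.14 (SE), with an unadjusted p of 0.00155 and an edgeR adjusted p of 0.0202, above the threshold of 0.005 that was used. With the library as block it was −0.52 with an adjusted p of 0.00106 by edgeR, which passed. That fit takes the libraries of a cross as independent, while the cross is the unit of the main test. Over the alternatives run the fitted ratio lay between −0.72 and −0.33, with adjusted p between 0.00106 and 0.225. Of the 3 bm1 sites with at least 50 reads in stem, 2 had more teosinte reads and 1 more maize reads, with log2 ratios of −1.22, −0.49 and 0.95, and different crosses carry different sites. The 3 crosses with more maize reads all had TIL03 as the teosinte parent (CML103xTIL03 with 57 maize and 33 teosinte reads, Oh43xTIL03 with 40 and 20, Ki3xTIL03 with 27 and 22), but B73xTIL03 (5 and 8) and W22xTIL03 (45 and 53) had more teosinte reads. The 5 crosses of TIL03 summed to 174 maize and 136 teosinte reads, and the 5 crosses of TIL14 to 99 and 200. In leaf bm1 had 1284 maize and 1594 teosinte reads, 15 of 24 crosses had more teosinte reads, and the fitted ratio was −0.18 ± 0.11 (SE; adjusted p = 0.322 by edgeR). In ear its 88 maize and 80 teosinte reads were too few for the test.

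The second comparison set the 6 maize inbreds against the 9 teosinte inbreds. Levels are reads at an average site of the gene in RPM, adjusted for which sites each inbred was counted at, and an inbred counted at no site that was read in any inbred drops out of the fit of that gene, so n differs between genes. No lignin gene was called by edgeR in stem, leaf or ear, where 0.0948%, 0.544% and 2.03% of all tested genes were called. At an unadjusted p below 0.05 there were 1 in stem (bm1), 2 in leaf (PAL-a and C4H) and 2 in ear (PAL-b and CCoAOMT-a), where 10.4%, 21% and 21.1% of all tested genes lay below it. DESeq2 called PAL-a in leaf, where it called 516 of all 16740 tested genes and edgeR called 91. The median log2 difference of maize minus teosinte inbreds was 0.21 for the lignin genes in stem, 0.71 in leaf and −0.69 in ear, beside 0.01, 0.00 and 0.02 over all tested genes.

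**Figure D2:**
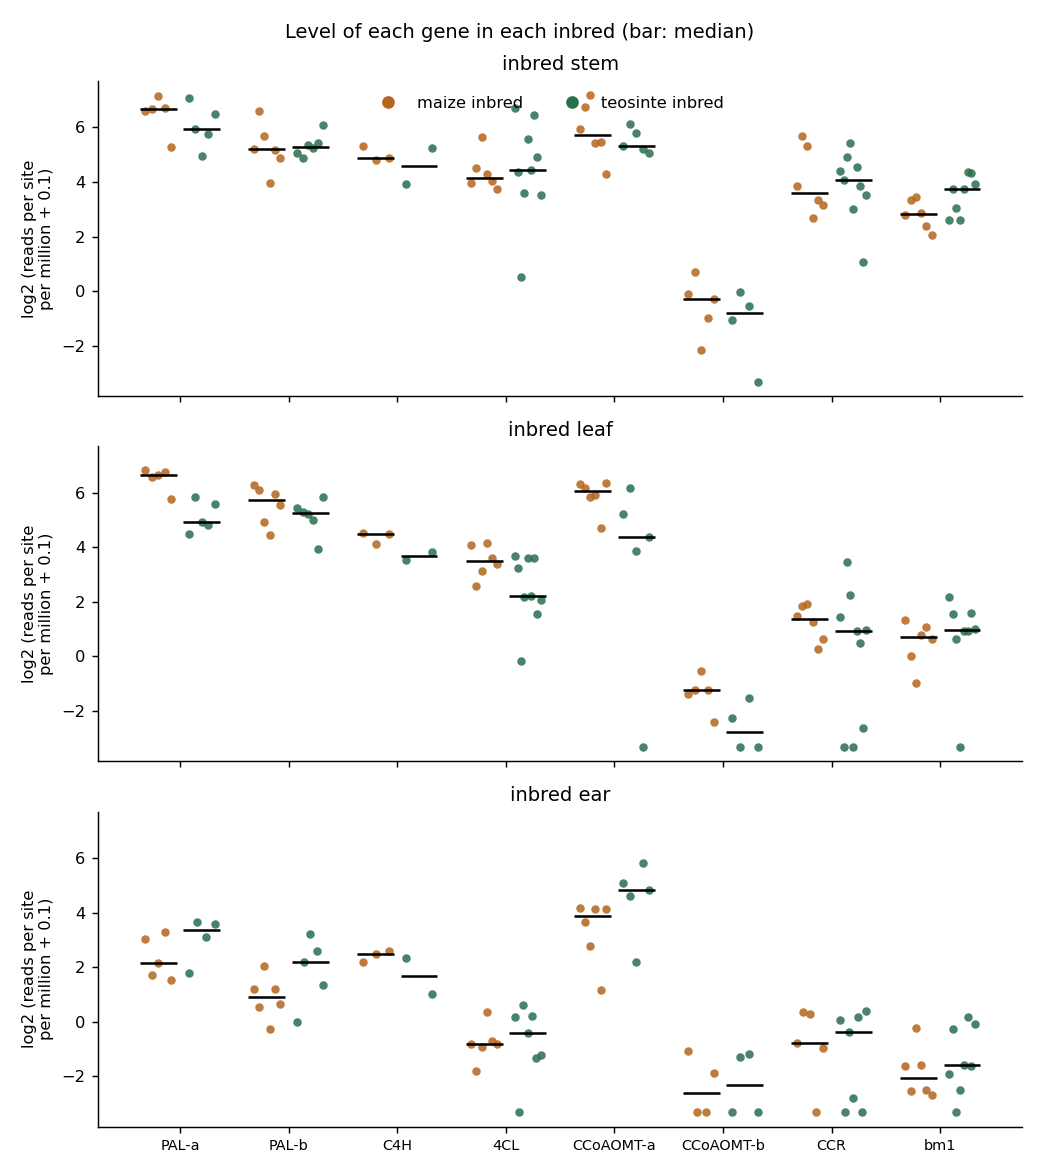
Level of the 8 lignin genes in maize inbreds (left of each pair) and teosinte inbreds (right) in stem, leaf and ear, as log2 of reads per site (RPM) with 0.1 added. Each point is an inbred and the bar is the median; in leaf the PAL-a levels of the 5 maize inbreds lie mostly above those of the 5 teosinte inbreds, and most other groups overlap.

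PAL-a in leaf had levels of 54.2 in W22, 95.1 in CML103, 99.9 in Ki3, 108 in Mo17 and 113 in B73, against 22.3 in TIL01, 27.9 in TIL11, 30.6 in TIL09, 48.2 in TIL25 and 56.8 in TIL03. The lowest maize inbred lay below the highest teosinte inbred, so the groups overlapped in these 2 lines. The fitted difference was 1.32 ± 0.30 (SE, log2), with an unadjusted p of 0.000618 and an edgeR adjusted p of 0.0234, and DESeq2 gave 1.22 with an adjusted p of 0.00148. The TIL01 level rests on 1 read. In stem the PAL-a difference was 0.43 ± 0.44 (SE), and in ear −0.69 ± 0.45 (SE). The highest teosinte level in stem, 137 in TIL01, rests on 3 reads, and the log2 ratio of the group means in stem was 0.38 with TIL01 and 0.72 without it.

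bm1 in stem had levels of 4.06 to 10.7 in 6 maize inbreds (median 7.05), against 6.03 to 20.7 in 8 teosinte inbreds (median 13.4). The groups overlapped, and TIL03 and TIL10 were the lowest teosinte inbreds at 6.03 and 6.05, the TIL10 level resting on 5 reads. The fitted difference was −0.81 ± 0.31 (SE), with an unadjusted p of 0.0154 and an edgeR adjusted p of 0.312. With inbreds scaled by their total depth in place of factors at shared sites, it was −1.64 with an adjusted p of 0.00476, but under that scaling the median of all genes tested was −0.87.

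Among the 8 genes in the 3 tissues, C4H in leaf was the only case in which the inbred groups did not overlap, with 17.5 to 23.0 in 3 maize inbreds and 11.5 to 14.1 in 2 teosinte inbreds. With so few inbreds such a separation arises easily by chance, and its share over all genes was not counted. The fitted difference of C4H was 0.71 ± 0.24 (SE), with an unadjusted p of 0.0232 and an edgeR adjusted p of 0.157, so it was not called. In ear PAL-b had levels of 0.727 to 4.07 in maize inbreds and 0.894 to 9.26 in teosinte inbreds, a fitted difference of −1.17 ± 0.52 (SE). CCoAOMT-a in ear had 2.14 to 17.8 in maize and 4.51 to 56.1 in teosinte, a difference of −1.21 ± 0.55 (SE). Their edgeR adjusted p-values were 0.203 and 0.214.

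4CL, CCR and CCoAOMT-a had wide ranges among inbreds in stem. 4CL levels ran between 13.3 and 50.5 in 6 maize inbreds and between 1.32 and 105 in 9 teosinte inbreds, where the lowest, TIL05, rests on 8 reads and the highest, TIL01, on 4 reads. CCR levels ran between 6.26 and 51.4 in maize and between 1.99 and 43.1 in teosinte inbreds. CCoAOMT-a levels ran between 19.5 and 144 in maize and between 33.0 and 68.9 in teosinte inbreds. The fitted differences in stem were −0.62 ± 0.67 for 4CL, 0.21 ± 0.52 for CCR and 0.58 ± 0.42 for CCoAOMT-a (SE), and none had an unadjusted p below 0.05.

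Crosses that stood out in the F1s were set beside the levels of their own parents, which come from other libraries. For 4CL, B73 had a level of 15.5 and TIL05 of 1.32 in stem, and 16.8 and 0.787 in leaf, the same direction as the reads of 30 to 1 and 31 to 0 in B73xTIL05. For CCR, Oh43 had 9.93 and TIL15 had 1.99 in stem, and 1.10 and 0.0644 in leaf, and Mo17 had 6.26 and TIL09 had 43.1 in stem. For PAL-b, Mo17 had 15.5 and TIL09 had 29.6 in stem, 21.8 and 38.8 in leaf, and 0.727 and 4.52 in ear. For bm1, W22 had 4.06 and TIL14 had 20.7 in stem, where W22xTIL14 had 25 maize and 88 teosinte reads. In these crosses the parent with the higher level was the one whose allele had more reads, but in others it was not. For CCoAOMT-a, Oh43 had 25.8 and TIL11 had 0 in leaf, and 44.5 and 36.6 in stem, while Oh43xTIL11 had 0 maize and 10 teosinte reads in leaf and 3 and 13 in stem. For PAL-b in stem, Ki3 had 51.0 and TIL11 had 37.5, while Ki3xTIL11 had 7 maize and 19 teosinte reads.

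Over all lignin genes and crosses with at least 10 F1 reads, the F1 ratio and the difference of the cross's own parents had the same direction in 63 of 88 cases in stem, 57 of 87 in leaf and 21 of 40 in ear. Where the F1 log2 ratio was 1 or more in size, they had the same direction in 12 of 14 cases in stem, 12 of 15 in leaf and 6 of 8 in ear. Over all crosses with at least 10 reads, bm1 had the same direction in 21 of 24 crosses in stem and 15 of 24 in leaf, PAL-a in 8 of 8 in stem and 3 of 8 in ear, and CCR in 7 of 13 in stem and 10 of 11 in leaf. PAL-b had it in 6 of 13 in leaf and 4CL in 3 of 8 in ear. Crosses share parents, and no such count was made over all genes, so these counts are a description and were not tested.

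**Figure D3:**
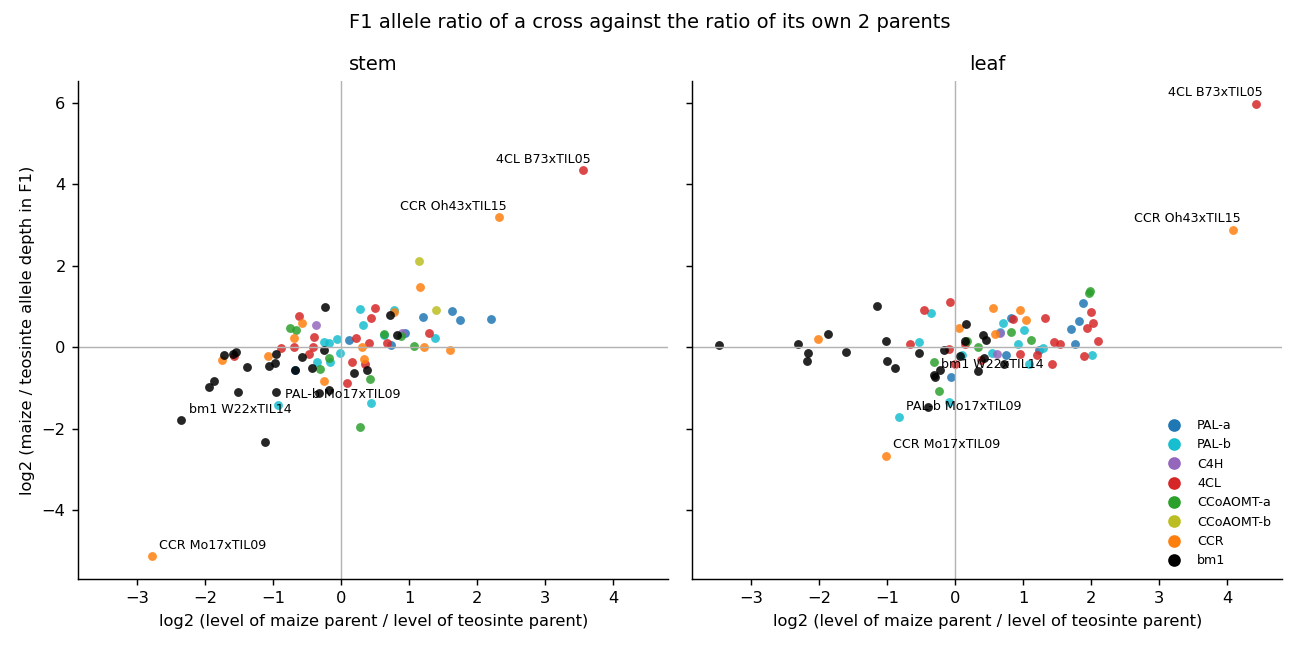
Log2 ratio of allele reads in each F1 (vertical axis) against the log2 ratio of the levels of its 2 parents (horizontal axis), maize over teosinte, for the lignin genes in stem and leaf. Each point is a cross with at least 10 F1 reads, and crosses with a parent at 0 are not drawn; points in the lower left and upper right have the same direction in the F1 and in its parents, as in 63 of 88 cases in stem.

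Classes of regulatory divergence after the study's method were also computed, from exact binomial tests of summed reads and Fisher's exact test of F1 against parent reads at a q-value below 0.005. Parent depths were scaled by factors at shared sites, where the study used depth relative to the reads of a library. This method takes each read as independent, and it placed 63.3% of all genes in stem, 75.2% in leaf and 68.5% in ear in a class with a cis or trans effect. In stem bm1 and PAL-a fell in the class with cis and trans effects of the same direction, PAL-b and CCR in the compensatory class, 4CL and CCoAOMT-a in trans only, and C4H in the ambiguous class. In leaf PAL-a kept its class, bm1 was cis only, PAL-b and CCR had opposing cis and trans effects, and C4H, 4CL and CCoAOMT-a were trans only. In ear PAL-b was cis only, PAL-a, 4CL and CCoAOMT-a were trans only, and CCR was conserved. These labels move with the processing. With inbreds scaled by total depth PAL-b fell in the class with cis and trans effects of the same direction in stem and ear and was cis only in leaf, CCR in stem had opposing effects, C4H in stem was compensatory, bm1 in leaf had cis and trans effects of the same direction, and 4CL and C4H in leaf were ambiguous. With the deepest site alone CCR was cis only in stem and compensatory in leaf, PAL-a and PAL-b in leaf were trans only, PAL-b in stem had opposing effects and was ambiguous in ear, 4CL was ambiguous in stem and conserved in ear, and C4H in leaf was ambiguous.

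A linear model of the F1 ratio on the maize and the teosinte parent could be fitted for 4CL and bm1, the genes with at least 15 crosses. Crosses of TIL05, TIL10 and TIL15 were left out of this model, and so was B73xTIL05, the highest cross of 4CL. For 4CL it held 16 crosses in stem and 19 in leaf, with 6 maize and 6 teosinte parents. For bm1 it held 22 crosses in stem and in leaf, with 6 maize and 5 teosinte parents. The shares therefore rest on few crosses per parent, above all for 4CL in stem. Teosinte parents accounted for 44.2% of the variation of 4CL among crosses in leaf and maize parents for 23.6%. For bm1 in leaf the shares were 43.4% for teosinte and 42.4% for maize parents. In stem they were 51.5% for teosinte and 39.998% for maize parents of 4CL, and 38.1% and 17.9% for those of bm1. The means over all genes tested were 31.3% and 24.8% in stem and 30.6% and 24.8% in leaf. No parent effect on these genes reached an adjusted p of 0.005, and the smallest was 0.0153, for the teosinte parents of bm1 in leaf (Benjamini-Hochberg over 11822 genes). Of all genes, 8.21% were called for the teosinte parent and 4.68% for the maize parent in stem, and 6.28% and 3.13% in leaf.

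Whether the allele ratio depended on tissue was tested as the interaction of allele and tissue in edgeR. No lignin gene was called for stem against leaf, stem against ear or leaf against ear, where 0.101%, 0.051% and 0.316% of all genes were called, and none had an unadjusted p below 0.05, where 4.77%, 4.15% and 7.88% of all genes did. DESeq2 was not applied to this test. The fitted difference for bm1 was −0.30 ± 0.18 (SE; stem minus leaf, unadjusted p = 0.0953 by edgeR), and for PAL-b it was 0.67 ± 0.34 (SE; stem minus ear, unadjusted p = 0.059 by edgeR).

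The third comparison set the total level of each gene, both alleles together, between tissues of the same cross or the same inbred. In bulk tissue fewer cells of a type and less RNA per cell cannot be told apart. A gene was tested here when it passed the filter in either of the tissues compared. bm1 and C4H did not pass in ear, so they entered the contrasts with ear through stem or leaf alone. For them the filter itself favors a lower level in ear. All 7 lignin genes tested were higher in stem than in ear, in F1s and in inbreds, where 33.4% and 27.6% of all genes were called higher. In F1s the largest fitted log2 difference of stem minus ear was 3.42 ± 0.20 (SE) for PAL-b, whose levels were 7.15 to 74.9 reads per site (RPM) in stem (median 43.8) and 0.81 to 10.7 in ear (median 2.30), higher in stem in 13 of 13 crosses. The smallest was 1.89 ± 0.36 (SE) for C4H. In inbreds the differences lay between 2.86 ± 0.34 for CCoAOMT-a and 5.67 ± 0.21 for bm1 (SE). Among the genes that also passed the filter in ear the largest inbred difference was 5.62, for CCR. The median difference over the lignin genes was 2.84 in F1s and 3.94 in inbreds, beside 0.03 and 0.01 over all genes.

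In leaf against ear 6 of 7 lignin genes were called higher in F1s and 7 of 7 in inbreds, where 31.8% and 28.2% of all genes were called higher. C4H was the F1 exception, at 1.82 ± 0.43 (SE) with an edgeR adjusted p of 0.00902 over 2 crosses. The F1 differences of the others lay between 2.08 ± 0.43 for CCR and 4.19 ± 0.22 for PAL-b, and the inbred differences between 2.30 ± 0.27 for C4H and 4.23 ± 0.26 for 4CL (SE, leaf minus ear). The median over the lignin genes was 2.51 in F1s and 3.26 in inbreds, beside −0.09 and −0.08 over all genes. CCR in F1s had 10 of 11 crosses higher in leaf and 1 higher in ear.

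**Figure D4:**
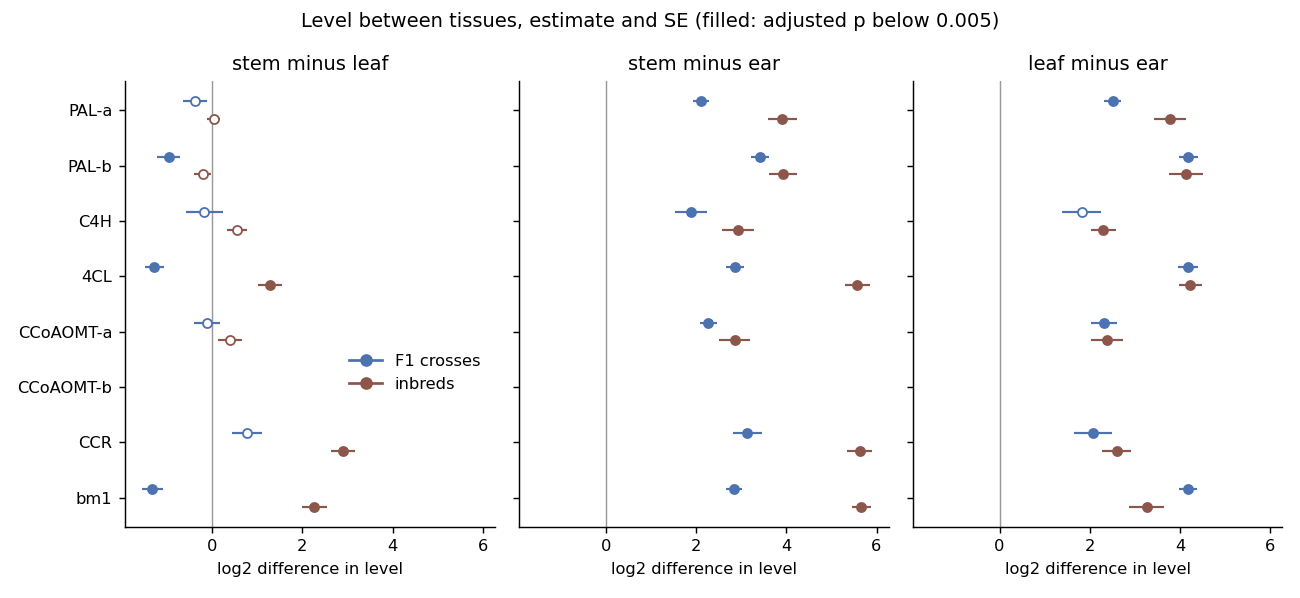
Fitted log2 difference in level between tissues for each lignin gene, with SE bars, in F1s (upper point) and inbreds (lower point); filled points have an edgeR adjusted p below 0.005. For stem minus leaf, bm1 and 4CL lie below 0 in F1s and above 0 in inbreds, while for stem minus ear and leaf minus ear all points lie above 0.

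Between stem and leaf bm1 and 4CL were called in opposite directions in F1s and inbreds. In F1s 3 of 7 lignin genes were called lower in stem and none higher, where 25.1% of all genes were called lower and 30% higher. DESeq2 also called 3. They were bm1 at −1.33 ± 0.23, 4CL at −1.28 ± 0.21 and PAL-b at −0.96 ± 0.26 (SE, stem minus leaf). In inbreds 3 of 7 were called higher in stem and none lower, where 23.8% of all genes were called higher and 21.2% lower. They were CCR at 2.90 ± 0.26, bm1 at 2.27 ± 0.28 and 4CL at 1.28 ± 0.27 (SE). PAL-b was at −0.21 in inbreds, in the same direction as in F1s but not called, and CCR lay above 0 in both classes. The median over the lignin genes was −0.38 in F1s and 0.55 in inbreds, beside 0.09 and 0.04 over all genes.

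bm1 was the gene with the widest gap between the classes. Its F1 level was 0.185 to 19.8 reads per site (RPM) in stem (median 7.92), 0.116 to 45.5 in leaf (median 15.2) and 0 to 4.52 in ear (median 0.902), and the ranges of the tissues overlapped, since crosses differ in their sites. Within a cross it was lower in stem than in leaf in 18 of 24 F1s, with a log2 difference of −2.65 at the lowest, −1.35 at the median and 1.47 at the highest. In inbreds it was higher in stem in 13 of 13 lines, with 0.42 at the lowest, 2.41 at the median and 4.61 at the highest. 4CL was lower in stem in 18 of 22 crosses and higher in stem in 14 of 15 inbreds. CCR was higher in stem in 10 of 13 crosses, with a fitted 0.78 ± 0.33 (SE; adjusted p = 0.0396 by edgeR), and in 13 of 13 inbreds.

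In F1s the median level of each of the 8 genes was lowest in ear, while in teosinte inbreds the medians of CCoAOMT-a and CCoAOMT-b were lower in leaf (20.5 and 0.0557) than in ear (28.0 and 0.153). In F1s PAL-a had a median of 29.4 reads per site (RPM) in stem, 38.9 in leaf and 10.9 in ear, and the median of PAL-b in leaf was 37.2. 4CL had a median of 5.77 in stem, 8.74 in leaf and 0.624 in ear over its F1s, and CCR had 1.94 in stem, 0.646 in leaf and 0.381 in ear. In maize inbreds CCR had a median of 12.1 in stem, 2.51 in leaf and 0.478 in ear, and in teosinte inbreds it had 16.9 in stem, 1.81 in leaf and 0.675 in ear. The stem and leaf ranges of CCR did not overlap in maize inbreds (6.26 to 51.4 in stem, 1.10 to 3.74 in leaf). The same was true of bm1 in maize inbreds (4.06 to 10.7 in stem, 0.404 to 2.43 in leaf) and in teosinte inbreds (6.03 to 20.7 in stem, 0 to 4.48 in leaf). How many of all genes have separate ranges was not counted. By edgeR 23.8% of all genes were called higher in stem than in leaf in inbreds, so separate ranges may be common.

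The difference between F1s and inbreds in a tissue contrast was itself tested with edgeR, an analysis chosen after the 2 contrasts were seen. For stem against leaf 3 of 7 lignin genes were called, all lower in the F1s, where 42.5% of all genes were called and 21.8% were lower. The differences of F1 minus inbred log2 contrast were −3.62 ± 0.38 for bm1, −2.56 ± 0.34 for 4CL and −2.16 ± 0.44 for CCR (SE). For stem against ear 4 of 7 were called, also all lower in the F1s, where 34.2% of all genes were called and 15.3% were lower. These were bm1 at −2.80 ± 0.32, 4CL at −2.68 ± 0.36, CCR at −2.57 ± 0.49 and PAL-a at −1.82 ± 0.37 (SE). For leaf against ear none was called, where 8.69% of all genes were called, and PAL-a alone had an unadjusted p below 0.05 (−1.28 ± 0.40, SE; adjusted p = 0.0201 by edgeR), where 38.5% of all genes did, a contrast to which DESeq2 was not applied. F1s and inbreds were sequenced in different pools, so class and pool cannot be told apart.

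**Figure D5:**
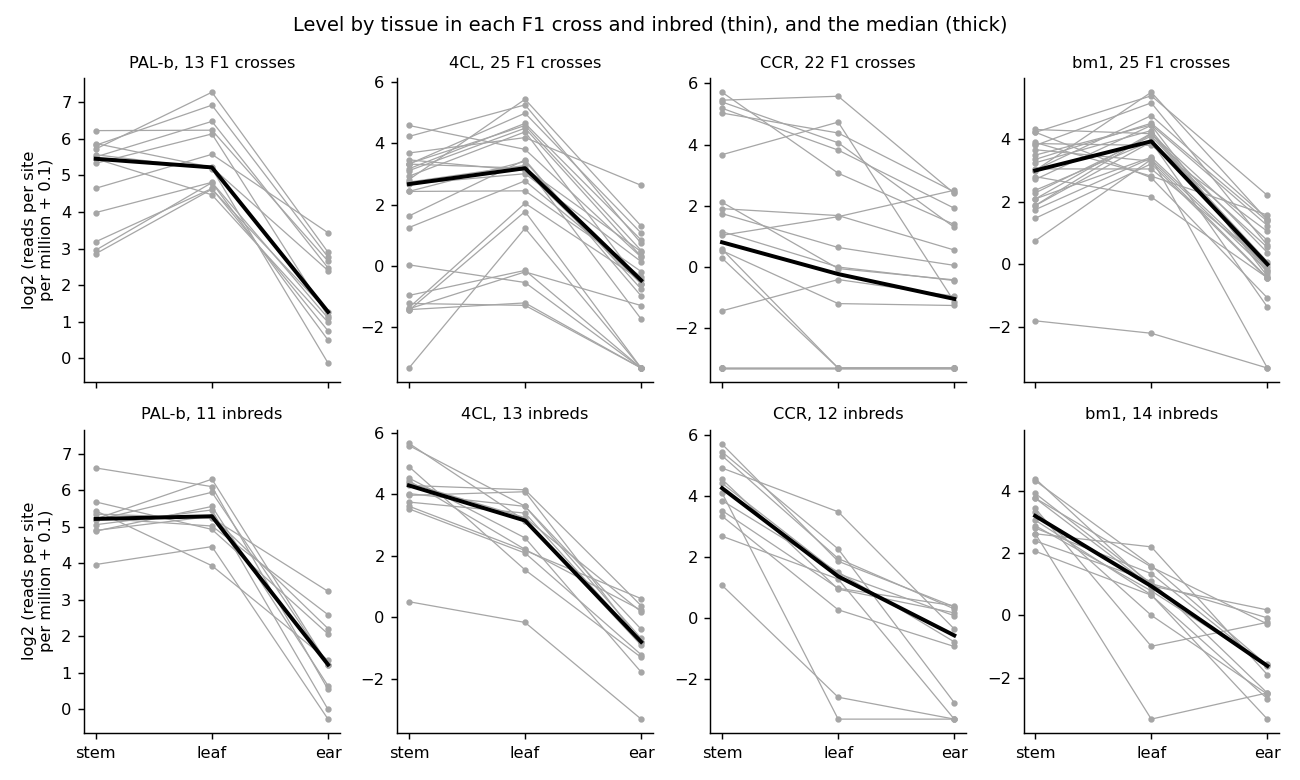
Level of PAL-b, 4CL, CCR and bm1 in stem, leaf and ear, as log2 of reads per site (RPM) with 0.1 added, with a thin line for each F1 cross or inbred that has all 3 tissues. The median (thick line) is lowest in ear in each panel, and between stem and leaf the bm1 and 4CL lines run up to leaf in most F1s and down to leaf in most inbreds.

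The stem and leaf calls in F1s depended on replicate 1. Without the libraries numbered 1, none of the 3 genes was called, with differences of −1.16 for bm1 (adjusted p = 0.00753 by edgeR), −0.98 for 4CL (0.0161) and −0.78 for PAL-b (0.0699), while 7581 genes were still called in all. Without the libraries numbered 2 the 3 genes stayed called, and CCR was called higher in stem at 1.08 (adjusted p = 0.00319 by edgeR). In the test of F1s against inbreds for stem and leaf, bm1, 4CL and CCR remained called without replicate 1. For stem and ear without replicate 1, PAL-a was not called (adjusted p = 0.00559 by edgeR). B73xTIL05 is the only cross with a library of sequencing pool 6 in each tissue, and there bm1 had a level of 7.10 in stem, 3.13 in leaf and 0.485 in ear, and 4CL had 7.10, 4.27 and 0.727. In that cross and pool CCR had 59.8 in stem, 8.03 in leaf and 1.31 in ear, and CCoAOMT-a had 187, 84.2 and 23.6. These 4 genes were therefore higher in stem than in leaf there, from 9 stem reads of 4CL to 475 of CCoAOMT-a and with no replicate. All libraries of that cross together held 65 bm1 reads in stem and 45 in leaf, and 31 reads of 4CL in each. Over all pool 6 libraries, which come from different crosses and include the stem library of doubtful tissue, the median 4CL level was 5.84 in stem and 8.33 in leaf. For bm1 these medians were 9.89 and 8.18, for CCR 48.9 and 0.571, and for CCoAOMT-a 131 and 44.5. The leaf photosynthesis markers, given above, also stood further apart between leaf and stem in F1s than in inbreds, and their part in the result was not tested.

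With the filter lowered to 1 read, CCoAOMT-b could be followed as well. It was higher in stem than in leaf in F1s by 1.85 ± 0.37 (SE, log2; adjusted p = 0.000352 by edgeR), and higher in stem than in ear by 2.29 ± 0.49 in F1s and 2.33 ± 0.57 in inbreds (SE). Its level in F1s was 0 to 6.69 reads per site (RPM) in stem (median 2.21), 0 to 1.11 in leaf (median 0.593) and 0 to 1.03 in ear (median 0.386), so the ranges overlapped at their low ends.

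Other genes of the pathway were taken from a list of 38 gene models of the same enzyme families and of neighboring steps, of which 36 had a segregating site and 19, 17 and 15 passed the filter in stem, leaf and ear. Of these, GRMZM2G158083 was called in F1 leaf (3055 maize and 2319 teosinte reads, log2 0.50 ± 0.11, SE; edgeR adjusted p = 0.00241) and GRMZM2G055320 in the ear of inbreds (−1.04 ± 0.18, SE; adjusted p = 0.00113), and no other was called in any F1 or inbred ratio. In stem against leaf 2 of the 19 were higher and 6 lower in F1s, and 6 higher and 4 lower in inbreds. In stem against ear 13 of 19 were higher and 2 lower in F1s, and 12 higher and 2 lower in inbreds. GRMZM2G046070, listed in RefSeq as cad1, was lower in stem than in leaf in inbreds (−1.81 ± 0.20, SE), unlike bm1, and its F1 value was 0.30 ± 0.21 (SE), which did not pass.

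The genes whose F1 level followed the mean of the lignin genes most closely across tissues were AC195340.3_FG004, GRMZM2G467907 and GRMZM2G023715. Their Pearson correlations were 0.860, 0.859 and 0.855 over 84 values, 28 crosses in 3 tissues, centred within each cross, among 2835 genes that passed the filter in all 3 tissues and had sites in each of these crosses. The values share libraries, depth and the tissue contrast, so the correlations only describe a common pattern of levels.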

How the data were processed

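The deposited files hold counts: for each library and lane the authors gave the read depth at every segregating site, with a column for the maize and a column for the teosinte allele in F1s. The authors sequenced strand-specific polyA libraries and aligned reads with Bowtie, perfect matches only, to the combined transcript sequences of both parents, built on the B73 genome AGPv2 with variants from BWA and GATK. A read that spans several sites counts at each, reads carry no molecular identifiers, and site positions were used only on the transcript with most reads, so that each was counted once.

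From these 448 samples the lanes and libraries of a cross or inbred were summed per gene. CML103xTIL25 and Mo17xTIL25 (8 libraries) were left out of the main fits, because the study's list of crosses leaves them out. Depth per library sets the precision: gene sums in single crosses are often below 100 reads. Allele ratios, parent differences and tissue contrasts were tested with edgeR 4.0.16 in R 4.3.3 (quasi-likelihood, two-sided, Benjamini-Hochberg over all genes passing the filter, threshold 0.005), with DESeq2 1.42.0 as an alternative. F1 tests had the cross as block and the same library size for both alleles. Parent tests had 1 column per inbred and offsets for depth at shared sites and for the sites of each inbred. Tissue contrasts used TMM with cross or inbred as block. Intervals were exact binomial (scipy 1.17.1). The fits were tested on simulated data.

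The alternatives were another tool, scaling, filter, threshold, unit or block, the deepest site alone, single sequencing pools, and leaving out replicates or doubtful libraries. The 8 genes were named in every comparison, at most 3 other pathway genes were named per comparison by smallest p among those called, and the 3 genes most like the 8 were named by correlation. Members, lists and tests were chosen with earlier results of these data known. Of the set first chosen 1 further gene is not reported here, and no count or median of the lignin genes holds it. RefSeq gene names, from another assembly, matched the 8 genes and were used for names only. Replicates of a line are separate libraries of that line, which the labels call biological replicates without saying whether they came from separate plants. The ear libraries of Oh43xTIL10, from different pools, both carry replicate number 1 and were summed. That cross gave 45.5% of the 4CL reads in ear. In the main tests libraries of a line were summed, so p-values measure only the spread between crosses or inbreds.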

Additional observations from a re-analysis of the deposited data

Results flagged for a closer look

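In 53 groups of inbred levels or F1 ratios of the lignin genes (42 of inbreds and 11 of F1 crosses), 6 held a value far from the others of its group. The rule used marks about 1 in 20 groups by chance if values are normally distributed. Inbred levels were taken without logs, so that rate may not hold for them. PAL-b in stem was 67.6 reads per site (RPM) in TIL25, and the next of 6 teosinte inbreds was 43.1. 4CL in stem was 50.5 in Ki3, and the next of 6 maize inbreds was 23.0. CCR in leaf was 10.98 in TIL05, and the next of 9 teosinte inbreds was 4.66. In ear, bm1 was 0.757 in Ki3 with the next maize inbred at 0.231, and 4CL was 1.19 in Mo17 with the next at 0.518. The bm1 levels in ear rest on 18 reads over the 6 maize inbreds together, below the filter of the tests. The log2 allele ratio of CCoAOMT-a in leaf was −4.39 in the F1 Oh43xTIL11, and the next of 9 crosses was −1.06. The Oh43xTIL11 value came from 0 maize and 10 teosinte reads (exact 95% interval of the maize share 0% to 30.8%).

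In 7 of 21 tests the tissue difference of a lignin gene in F1s and in inbreds was not the same, by a test of that difference with edgeR. These were 3 of 7 for stem against leaf, 4 of 7 for stem against ear and 0 of 7 for leaf against ear, where 42.5%, 34.2% and 8.69% of all genes were called. For stem minus leaf the F1 minus inbred difference was −3.62 for bm1 (adjusted p = 4.93e-10), −2.56 for 4CL (4.76e-08) and −2.16 for CCR (7.03e-05). For stem minus ear it was −2.80 for bm1 (adjusted p = 5.46e-10 by edgeR), −2.68 for 4CL (3.99e-08), −2.57 for CCR (2.85e-05) and −1.82 for PAL-a (0.00019). As sequencing pools differ between F1s and inbreds, pool and class cannot be told apart.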

How the results depend on the processing

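Counts of lignin genes called stayed within 1.5 times under most alternatives. For the F1 ratio in stem the count was 0 and became 1 (bm1) with the replicate block (2 columns per library; −0.52, adjusted p = 0.00106 by edgeR) and 1 at a threshold of 0.05. For the parents it became 1 in stem with total depth scaling (bm1) and 1 in leaf with DESeq2 and at a threshold of 0.05 (PAL-a). For the F1 level in stem against leaf it ranged between 0 and 4 when a replicate was left out. For F1 minus inbred in leaf against ear it became 1 at 0.05 (PAL-a), and the count of ear genes with a cis or trans class was 4 and became 2 with the deepest site alone. The deviations of same-numbered libraries of different lines had median correlations between −0.01 and 0.01, with a wide spread (−0.52 to 0.47 in F1 stem, where 95 of 351 pairs were over 0.1, and −0.78 to 0.75 in F1 leaf, where 94 of 351 were), so the numbers were not taken to pair lines. The block called no lignin gene in leaf, in ear or in the parents. It called 1766, 1807 and 2678 of all genes for the F1 ratio in stem, leaf and ear, against 693, 692 and 840, and 149, 859 and 1098 for the parents, against 16, 91 and 343.

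Directions that turned were all of values that had not passed the test. With CML103xTIL25 and Mo17xTIL25 added (31.1% to 31.9% and 96.3% to 99.4% maize reads), F1 ratios became 0.083 for PAL-b and 0.19 for CCoAOMT-a in stem, and 0.024 for PAL-b in leaf. CCoAOMT-a became −0.038 in leaf and −0.048 in ear with DESeq2, and −0.00788 in leaf with the deepest site, where PAL-a became −0.019 in ear. When a replicate was left out, F1 ratios lay between −0.092 and 0.18 for C4H and between −0.17 and 0.40 for CCoAOMT-a in leaf, and between −0.015 and 0.78 for CCR in ear. For the parents, total depth scaling moved the median of all genes to −0.87 in stem, −0.85 in leaf and −0.73 in ear. Under it 1.595%, 1.21% and 2.43% of calls were higher in maize, against 62.5%, 60.4% and 28.9%. With that shift still in, PAL-a became −0.049, PAL-b −0.60, CCR −0.54 and CCoAOMT-a −0.25 in stem, PAL-b −0.32 and 4CL −0.083 in leaf, and CCR −0.50 in ear. When a replicate was left out, the parent difference lay between −0.019 and 0.11 for PAL-b in stem, between −1.28 and 0.43 for bm1 and between −0.49 and 0.051 for CCR in leaf, and between −0.23 and 0.79 for CCR in ear. With single pools, 4CL became 0.061 in stem (pool 18), bm1 0.059 and CCR 0.039 in leaf (pool 17), and CCR −0.15 in ear (pool 15). Likewise the F1 level of CCoAOMT-a in stem minus leaf lay between −0.12 and 0.10, and F1 minus inbred in leaf against ear lay between −0.62 and 0.065 for CCR, −0.36 and 0.36 for CCoAOMT-a, −0.23 and 0.18 for PAL-b, and −0.29 and 0.24 for 4CL. The causes were not tested.

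All-gene counts moved more. For the F1 ratio in stem, leaf and ear DESeq2 called 1046, 1003 and 1190, the deepest site 312, 292 and 431, and the threshold of 0.05 gave 2081, 2048 and 2434, with 274 in stem and 323 in leaf when the left-out crosses were added. Leaving out a replicate gave as few as 225, 269 and 524. For the parents DESeq2 called 91, 516 and 819, total depth 1442, 1986 and 1028, and 0.05 gave 66, 845 and 1127. TMM over alleles made 52.0% of stem and 58.0% of leaf calls maize-higher, against 67.4% and 71.2%. Of 214 alternative values of the F1 ratio 202 kept their direction and side of the threshold, of 190 for the parents 172, of 34 for the interaction 34, of 182 for the F1 level 174, of 42 for the inbred level 42, and of 63 for F1 minus inbred 56. Pool 6 alone gives values with no test, the added crosses have no ear libraries, and leaf has no library of doubtful tissue. Genes below the filter, CCoAOMT-b above all, are limited by depth.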
